A study of Drosophila melanogaster with 4 samples.

Results

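Compact shared H3K9me1 clusters were short stretches of chromatin called as enriched for monomethylated lysine 9 of histone H3 in both ChIP libraries of a study of adult Drosophila melanogaster heads. They were taken from the authors' cluster list for the whole series as the enriched clusters of at most 2000 bp on 2L, 2R, 3L, 3R, X or 4 that share at least 1 bp with an enriched cluster of ChIP replicate 1 and with one of ChIP replicate 2. The rule left 1174 members of the 21525 enriched clusters in the series list. The study profiled nuclei from heads of mixed adult flies of the wild-type Oregon-R strain, raised in population cages, by chromatin immunoprecipitation and sequencing (ChIP-seq). There are 2 ChIP libraries, prepared with the H3K9me1 antibody of new lot 2, and 2 input libraries, and the labels tie each input to the cluster calls of 1 ChIP library. All 4 libraries carry the same strain, genotype and stage, and no treatment or second genotype is named. The labels give neither sex nor age, and they do not state whether the replicates were drawn from different populations of flies, so their spread may be technical.

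Lysine 9 of histone H3 can be mono-, di- or trimethylated, and in Drosophila the enzymes Su(var)3-9, eggless and G9a place these methyl groups. The di- and trimethylated forms are bound by heterochromatin protein HP1 and mark the chromatin around centromeres and on the small chromosome 4, whereas the monomethylated form is also found in gene-rich chromatin. Heads hold neurons, glia, photoreceptors, fat body, muscle and cuticle cells, and a cluster called in bulk chromatin cannot tell a mark carried by few nuclei from a weaker one carried by many.

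The members are regions chosen by width and by overlap, that is, by the readout itself. Their number, width, score and edges are therefore given as descriptions with no test, and differences between classes of clusters are differences in counts and medians. The files hold no read depth, and where no cluster is listed there was only no call. Positions are on FlyBase release 5, and genes, exons and introns were not assigned to them, since the annotation at hand has coordinates of a different assembly.

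Few of the short clusters in the series list were found in both replicates. Of the 10065 series clusters of at most 2000 bp on the arms and chromosome 4, 2929 touched a cluster of replicate 1 and 2283 one of replicate 2. The 1174 that touched both were 11.7% of them. Among all 21459 series clusters on these sequences 47.6% touched both replicates, and among the 11394 clusters over 2000 bp 79.4% did. The overlap rule was used to choose the members, so nothing is read from these shares beyond their size. With replicate 1 left out of the rule the count was 2283, and with replicate 2 left out it was 2929. With clusters under 500 bp apart joined first it was 605, and with members scoring below the series list's median removed it was 108.

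The share found in both replicates followed the width of the series cluster. It was 0% for the 3687 clusters of 1001 to 1300 bp, 2.28% at 1401 to 1500 bp, 22.1% at 1601 to 1700 bp and 39.5% at 1901 to 2000 bp. Beyond the limit it was 60.1% at 2001 to 2500 bp and 98.1% at 5001 to 10000 bp. The lists differ in their shortest clusters, which measured 1001 bp in the series list and 1301 bp in each replicate list. A series cluster under 1301 bp therefore cannot hold a whole replicate cluster. The members sat close to the width limit, with a median of 1818 bp, and 347 of the 1174 measured 1901 to 2000 bp.

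**Figure D1:**
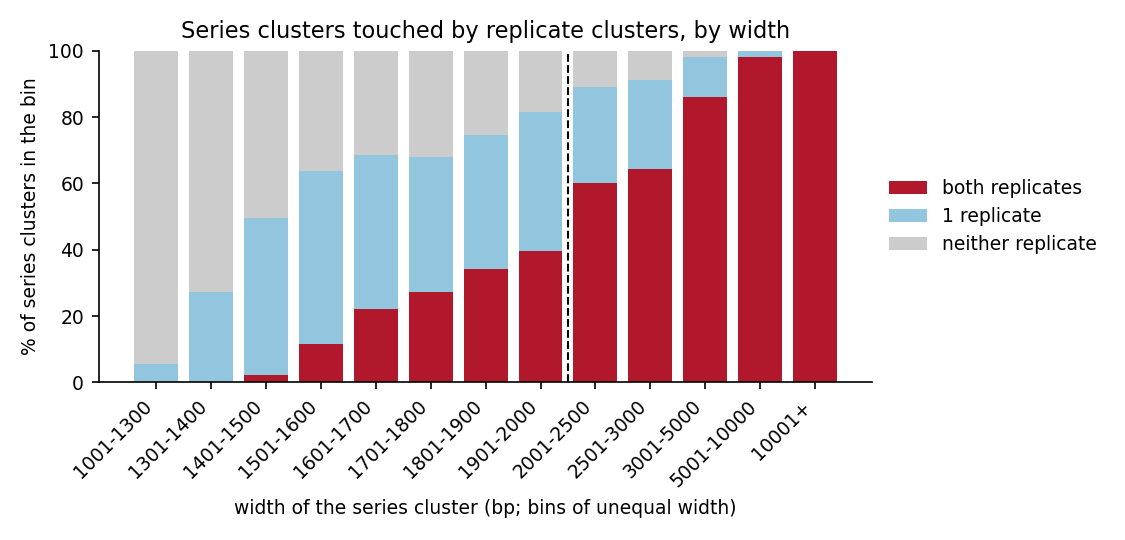
Percent of series clusters in each width bin (x axis, bp, bins of unequal width) that touched a cluster of both replicates (red), of 1 replicate (blue) or of neither (grey). The dashed line marks 2000 bp, and the red share is 39.5% in the bin just below it and 60.1% in the bin just above.

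Regions just inside and just outside the limit differed in width by 1 bp and are given for their position and score. The widest members, each of 2000 bp, lay on 2R at 13149069 to 13151068 with a series score of 0.409, on 3R at 20981862 to 20983861 with 0.405, and on 2R at 15192647 to 15194646 with 0.357. The narrowest shared clusters left out, each of 2001 bp, were X 3167032 to 3169032 with a series score of 0.542, X 16908203 to 16910203 with 0.503, and 3R 9649692 to 9651692 with 0.399. The score is the authors' own value per cluster, positive in enriched clusters, and the sources used here do not give its scale.

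Most short clusters of a single replicate list did not end up as members. Replicate 1 held 7166 clusters of at most 2000 bp on the arms and chromosome 4 and replicate 2 held 7346. Members held 16.0% of these in replicate 1 and 15.8% in replicate 2, a mean of 15.9 ± 0.143% (SD, n = 2). A larger share, 49.5% in replicate 1 and 62.5% in replicate 2, lay in series clusters over 2000 bp that both replicates touched, with median series widths of 3592 bp and 3643 bp. Those stretches, short in a replicate list, thus lay within longer clusters of the series list. The replicate clusters inside members scored lower than those inside wider shared clusters, with medians of 0.457 against 0.526 in replicate 1 and 0.458 against 0.521 in replicate 2.

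Members were spread over all 5 large arms and were sparser on X than on the autosomal arms. X carried 6.20 members per Mb and the autosomal arms 10.6 per Mb, a ratio of 0.583. By count there were 139 on X, 233 on 2L, 194 on 2R, 288 on 3L, 312 on 3R and 8 on chromosome 4. Density was highest on 3L, at 11.7 per Mb, followed by 11.2 on 3R, 10.1 on 2L and 9.17 on 2R, and it was 5.92 per Mb on chromosome 4. Chromosome 4 had few clusters of any kind, at 46.6 series clusters per Mb against 178.3 on all arms and chromosome 4, and members were 12.7% of its clusters against 5.47% over all. The density of all series clusters did not show the gap between X and the autosomal arms, at 185.3 per Mb on X and 178.5 per Mb on the autosomal arms. Clusters of at least 10 kb gave a ratio of 0.874.

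The gap between X and the autosomal arms was not present in the short clusters of each replicate taken alone. Their density on X over that on the autosomal arms was 1.01 in replicate 1 and 0.982 in replicate 2, a mean of 0.996 ± 0.0202 (SD, n = 2). Members held 10.1% of the short X clusters and 17.4% of the short autosomal clusters of replicate 1. In replicate 2 they held 10.2% on X and 17.1% on the autosomal arms. Wider shared series clusters held 56.4% of the short X clusters of replicate 1 and 48.0% of its short autosomal clusters, whereas in replicate 2 the shares were 63.4% on X and 62.4% on the autosomal arms. The member ratio also depended on the rule. It was 0.882 without replicate 1 and 0.767 without replicate 2, and it turned to 8.62 among the 108 members that reached the series list's median score. With the score threshold set separately within X and within the other sequences, a setting chosen after the data were seen, it was 1.14 over 86 members, with a 95% binomial (Clopper-Pearson) interval of 0.638 to 1.94 that covers the count of clusters only.

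**Figure D2:**
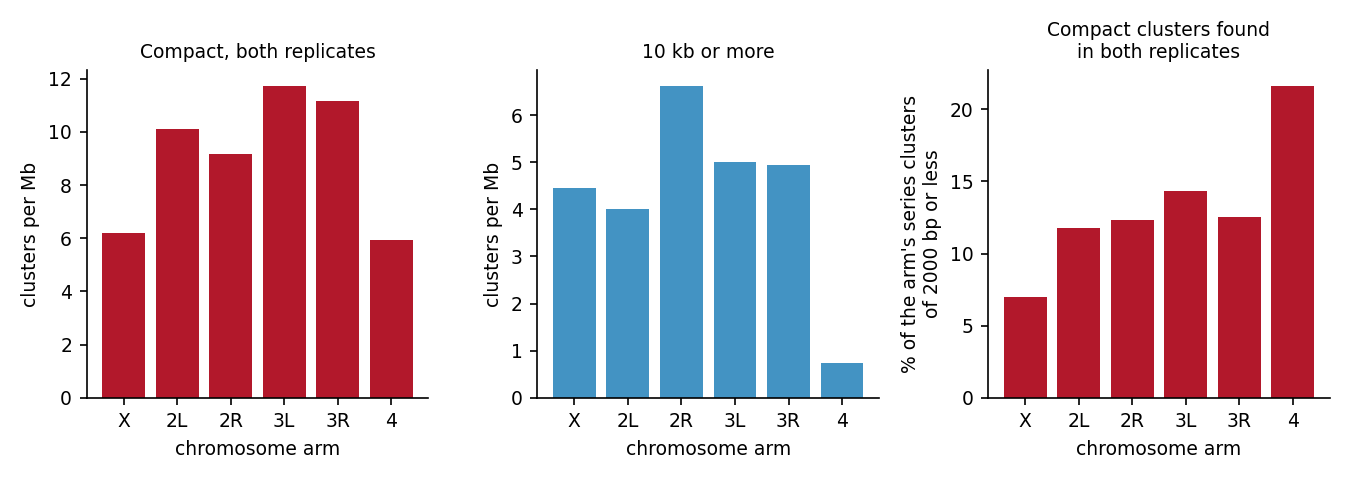
Compact clusters found in both replicates per Mb of each arm (left), series clusters of 10 kb or more per Mb (middle), and the percent of each arm's series clusters of 2000 bp or less that were found in both replicates (right). X has 6.20 members per Mb, below the 9.17 to 11.7 of the autosomal arms, and chromosome 4 has 8 members and 1 cluster of 10 kb or more.

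Along the arms the members were scattered, with few empty stretches. Over 117 full windows of 1 Mb the number of members ran from 0 to 22 with a median of 10, and 2 windows held none. The fullest window lay on 3L at 19000001 to 20000000 with 22 members, followed by 3R at 6000001 to 7000000 with 21. The 3L windows starting at 16000001 and 20000001 held 19 members each, and those starting at 18000001 and 21000001 held 18 each. The empty windows lay at or near the centromeric ends of their assembled arms, on 2R at 1 to 1000000 and on 3L at 23000001 to 24000000, which held 15 series clusters on 2R and 7 on 3L. On X the range was 2 to 11 members, with 2 in the window from 7000001 to 8000000.

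The centromeric 1 Mb of the assembled arms and chromosome 4 together held 2.47% of the members, 1.92% of all series clusters and 5.28% of the sequence. Members were 7.06% of the 411 series clusters there and 5.47% of the series clusters on all arms and chromosome 4. In the proximal windows there were 21 members, 11 on 3R, 5 on X and 5 on 2L, and none on 2R or 3L. The 11 on 3R were 6.18% of the 178 series clusters in that window. The highest-scoring of them lay on X at 21442955 to 21444938 with scores of 0.710 in replicate 1 and 0.705 in replicate 2. It was followed by X at 21427669 to 21429451, with 0.729 in replicate 1 and 0.761 in replicate 2, and by X at 21496331 to 21498170, with 0.771 in replicate 1 and 0.458 in replicate 2. The replicates thus scored the first of these alike and the last unlike.

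The 8 members on chromosome 4 were weak and lay between 408072 and 998559. They made up 21.6% of the 37 short series clusters there, against 12.8% on the autosomal arms and 11.7% on all arms and chromosome 4. Their replicate scores ran from 0.200 to 0.451 in replicate 1 and from 0.256 to 0.445 in replicate 2. The member with the highest series score, 0.320, lay at 446334 to 448236, with 0.412 in replicate 1 and 0.445 in replicate 2. In the same order along the chromosome the others lay at 408072 to 409898, 415931 to 417666, 547730 to 549573, 623519 to 625405, 880707 to 882411, 984659 to 986513 and 997093 to 998559. The last of these had the lowest series score of the 8, at 0.143.

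Members usually had another series cluster close by. The gap from a member to the nearest series cluster, edge to edge, had a median of 530.5 bp with quartiles of 177 and 1294.5 bp. The gap was under 100 bp in 187 members, or 15.9%, and under 1000 bp in 807, or 68.7%. On both sides together, 235 members had gaps under 1000 bp and 28 had gaps over 5000 bp. The left and the right gap were alike, with medians of 1225 bp and 1273.5 bp. Over all series clusters the nearest gap was much the same, with a median of 515 bp. It was under 100 bp in 14.1%, under 1000 bp in 68.2% and over 5000 bp in 2.72% of them.

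Other classes of clusters had gaps of the same order. The median was 512 bp in the 1755 short clusters touched in replicate 1 only, 560 bp in the 1109 touched in replicate 2 only and 647 bp in the 6027 touched in neither. It was 447 bp in the 8451 shared clusters over 2 kb and under 10 kb. Within the replicate lists the neighbours of members lay farther off, at a median of 1.38 kb in replicate 1 and 1.68 kb in replicate 2, a mean of 1.53 ± 0.210 kb (SD, n = 2). The surroundings of members were well covered by clusters. In the 10 kb on either side, series clusters covered 53.4% of bases around members, against 48.6% around short clusters found in neither replicate. Replicate clusters covered 32.5 ± 3.12% around members (SD, n = 2) and 26.2 ± 2.42% around short clusters found in neither. For 19 of the 1174 members, or 1.62%, clusters of neither replicate covered any base of these flanks. A replicate cluster that touched the member and reached past its edge counted as cover here. The share was 4.53% for short clusters found in neither replicate and 0.970% for shared clusters over 2 kb and under 10 kb.

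The neighbours of members were of the same kinds as the neighbours of any cluster. Of 2348 member sides, 39.2% faced a shared cluster over 2 kb and under 10 kb, 26.1% a short cluster found in neither replicate, 7.75% another member and 3.07% a cluster of at least 10 kb. The same shares over all series clusters were 39.4%, 28.1%, 5.47% and 2.77%. Most members stood alone among other classes, which says little about their placement, since members were only 5.47% of all series clusters. There were 998 single members, 80 pairs, 4 runs of 3 and 1 run of 4 with no other series cluster between them. The run of 4 lay on 3L at 16852029 to 16860928, over 8900 bp, with gaps of 685, 123 and 1062 bp inside it. Its series scores were 0.282, 0.336, 0.354 and 0.185 in order of position. The nearest other member lay at a median distance of 26.7 kb.

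A few members were isolated. More than 10 kb from any other series cluster lay 5 of the 1174, 2 on 2L, 2 on 3R and 1 on chromosome 4. Such isolation was about as rare over all series clusters, at 105 of 21459. The most isolated lay on 2L at 16094289 to 16096276, with gaps of 29.3 kb on the left and 51.4 kb on the right. It had scores of 0.474 in replicate 1 and 0.500 in replicate 2. The others lay on 3R at 6906239 to 6908151 with a nearest gap of 14.9 kb, on 3R at 8735495 to 8737209 with 12.2 kb, on 2L at 11467945 to 11469409 with 11.3 kb, and on chromosome 4 at 984659 to 986513 with 10.6 kb. These isolated members had replicate scores from 0.323 to 0.514, within the range of the rest, and their edges differed between replicates by at most 159 bp.

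The series list held 594 clusters of at least 10 kb. From a member to the nearest of these, the median distance was 82.9 kb, with quartiles of 26.1 and 209.9 kb. The distance was under 10 kb for 141 members and over 500 kb for 58, or 4.94%. By arm the median was 44.4 kb on 2R, 80.0 kb on 3L, 96.2 kb on 2L, 110.0 kb on X, 111.6 kb on 3R and 248.9 kb on chromosome 4. The 2R value goes with the highest density of such broad clusters, 6.62 per Mb, and the chromosome 4 value with a single one. For 70 members a broad cluster was the next cluster on at least 1 side. The distance to a broad cluster was much the same over all series clusters, with a median of 85.3 kb. It was under 10 kb for 2359 of these 21459 clusters and over 500 kb for 4.46% of them.

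Over all arms together, the median distance to a broad cluster was shorter for members than for the other short clusters and longer than for wider shared clusters. For members it was 82.9 kb, and it was 100.3 kb for short clusters in replicate 1 only, 97.2 kb for those in replicate 2 only and 104.6 kb for those in neither, and it was 69.5 kb for shared clusters over 2 kb and under 10 kb. These medians differ by less than the spread within each class, whose quartiles for members were 26.1 and 209.9 kb. On X the order of members and short clusters in neither replicate was the same, with 110.0 kb against 144.1 kb, and on the autosomal arms it was 76.9 kb against 95.7 kb. The order did not hold on every chromosome. On 3R, the arm with most members, the median was 111.6 kb for members, 109.5 kb for short clusters in replicate 1 only, 90.3 kb for those in replicate 2 only and 114.3 kb for those in neither. On chromosome 4 it was 248.9 kb for the 8 members and 122.3 kb for the 8 short clusters in replicate 1 only.

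**Figure D3:**
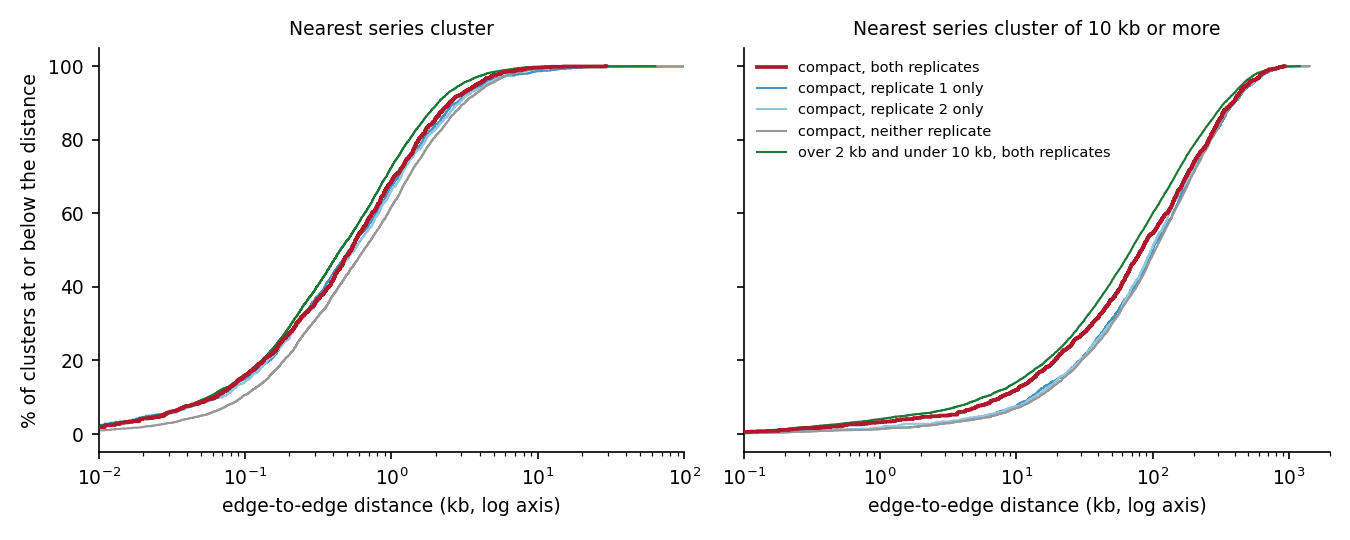
Cumulative percent of clusters (y axis) by edge-to-edge distance in kb on a log axis to the nearest series cluster (left) and to the nearest series cluster of 10 kb or more (right), for compact clusters in both replicates (red), in replicate 1 only, in replicate 2 only or in neither, and for wider shared clusters (green). Members have a median of 530.5 bp on the left and of 82.9 kb on the right, between the short clusters found in neither replicate and the wider shared ones.

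Members at both extremes of this distance were found. The farthest lay on 2L at 16799460 to 16801299, 932.6 kb from a broad cluster, followed by 2L at 16646984 to 16648641 with 898.4 kb and 2L at 16642968 to 16644965 with 894.3 kb. Their nearest series clusters were 612, 137 and 507 bp away, so they were far from broad clusters without being isolated. The nearest lay on X at 5664021 to 5665581, 29 bp from a broad cluster, then 2R at 20259661 to 20261234 with 43 bp and 3R at 710058 to 712037 with 61 bp.

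Members had low scores in every list. Their median score was 0.460 in replicate 1, with quartiles of 0.388 and 0.539, and 0.458 in replicate 2, with quartiles of 0.387 and 0.528. The mean of these medians was 0.459 ± 0.00134 (SD, n = 2). The median of all clusters was 0.610 in the replicate 1 list and 0.589 in the replicate 2 list, so 90.3% of members lay below the median in replicate 1 and 88.2% in replicate 2. The median member stood at percentile 16.3 of the replicate 1 scores and 15.6 of the replicate 2 scores. Short clusters found in a single replicate were also below the list medians. Their median was 0.492 for those in replicate 1 only and 0.505 for those in replicate 2 only.

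The series score of a member was nearly always below both of its replicate scores. This held for 1112 of the 1174 members, or 94.7%, with a median difference of -0.134 between the series score and the mean of the replicate scores. It held for 77.1% of the shared clusters over 2 kb and under 10 kb and for 73.6% of those of at least 10 kb. The median series score of members, 0.334, was below that of the short clusters found in neither replicate, 0.369, and in replicate 2 only, 0.351, and close to that of the short clusters in replicate 1 only, 0.335. On the autosomal arms members, at 0.328, lay above the short clusters in replicate 1 only, at 0.319. Against the short clusters in replicate 2 only the difference was smaller within each region than over all. It was 0.328 against 0.331 on the autosomal arms and 0.435 against 0.447 on X, and X held 247 of the 1109 clusters of that class and 139 of the 1174 members. Against the short clusters in neither replicate the order was the same on X, with 0.435 against 0.452, and on the autosomal arms, with 0.328 against 0.354. In each 100 bp bin from 1301 to 2000 bp the shared clusters had the lower median, for example 0.365 against 0.388 at 1901 to 2000 bp. Above the limit the order turned, with 0.460 against 0.424 at 2001 to 2500 bp. The sources used here do not say how the authors formed the series score.

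Replicate scores of the same member went together. Across the 1174 members Pearson's r was 0.670 and Spearman's rho 0.633, given as a description, since members share their libraries and carry no independent error. Within X rho was 0.511 over 139 members and within the autosomal arms it was 0.588 over 1027. Replicate 1 was higher in 587 members, or 50.0%, whereas it was higher in 64.5% of the shared clusters over 2 kb and under 10 kb and in 76.1% of those of at least 10 kb. The even balance of members did not hold on X, where replicate 1 was higher in 61.2% of them, against 48.6% on the autosomal arms. Shared clusters over 2 kb and under 10 kb gave 65.4% on X and 64.3% on the autosomal arms. The median absolute difference between the replicates was 0.0591.

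Members on X scored above those on the autosomal arms in both replicates. The medians were 0.609 on X and 0.447 on the autosomal arms in replicate 1, and 0.587 on X and 0.446 on the autosomal arms in replicate 2. The difference was 0.162 in replicate 1 and 0.141 in replicate 2, a mean of 0.152 ± 0.0149 (SD, n = 2). Other classes showed the same order. In replicate 1 the medians were 0.648 on X and 0.471 on the autosomal arms for short clusters in replicate 1 only, 0.793 on X and 0.627 on the autosomal arms for shared clusters over 2 kb and under 10 kb, and 0.950 on X and 0.811 on the autosomal arms for clusters of at least 10 kb. On chromosome 4 the medians were 0.367 in replicate 1 and 0.373 in replicate 2.

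**Figure D4:**
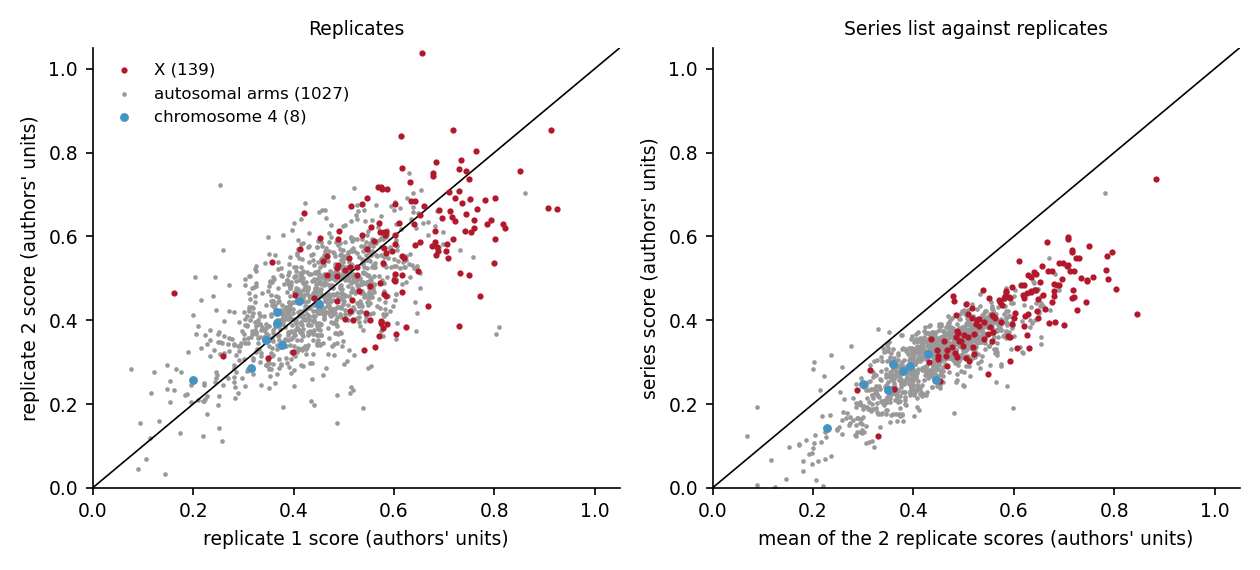
Authors' scores of the 1174 members. Left, replicate 1 (x axis) against replicate 2 (y axis). Right, the mean of the 2 replicate scores (x axis) against the series score (y axis). Points are members on X (red), on the autosomal arms (grey) and on chromosome 4 (blue), and the line marks equal values. In the right panel 94.7% of members have a series score below both replicate scores, and X members lie at higher scores.

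Of the 5 highest-scoring members 4 were on X, where clusters of the other classes scored higher too. The first, X 20833272 to 20835267, had a series score of 0.738, 0.913 in replicate 1 and 0.853 in replicate 2. The next lay on 2L at 15676208 to 15678200 with a series score of 0.703, 0.860 in replicate 1 and 0.703 in replicate 2. They were followed by X at 2832730 to 2834638 (series score 0.598), X at 8566681 to 8568420 (0.594) and X at 19012260 to 19014128 (0.586). Both leading members stood apart from the third by more than 0.1 in series score. The best members of the remaining arms were lower, with series scores of 0.547 on 2R at 2889952 to 2891708, 0.510 on 3R at 26916678 to 26918453 and 0.494 on 3L at 18756166 to 18757655.

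Edges of members mostly differed between the replicates by less than 158 bp, the upper quartile of the offset. In 1160 of the 1174 members exactly 1 cluster of each replicate touched the member, and in the other 14 one replicate had 2 clusters there. Among the 1160, the start of the replicate 1 cluster and that of the replicate 2 cluster differed by a median of 82 bp, and the ends differed by a median of 82 bp. Over both edges the quartiles of the absolute offset were 37 and 158 bp. Both edges lay within 100 bp of each other in 391 members, or 33.7%, against a background of 16.8% over all shared series clusters with 1 cluster of each replicate. Both lay within 50 bp in 136 members and within 10 bp in 10.

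The width limit bounds these offsets. When both replicate clusters lie inside a series cluster of at most 2000 bp and each is at least 1301 bp wide, their edges cannot differ by more than 699 bp, and both lay inside in 817 of the 1160 members. Shared clusters over 2 kb and under 10 kb, where the bound is looser, had a median absolute offset of 160 bp. As a share of the cluster's width the medians were closer, at 4.60% in members and 5.12% in those wider clusters. In the 66 shared clusters of at least 10 kb with 1 cluster of each replicate the offset was larger in bases, at 163.5 bp, and smaller as a share of width, at 1.34%. Within members the offset went with width, at a median of 56.5 bp in the 119 members up to 1600 bp, 74 bp at 1601 to 1800 bp and 96 bp at 1801 to 2000 bp. It was 92 bp on X, 78.5 bp on 2L, 75.5 bp on 2R, 77 bp on 3L and 88 bp on 3R.

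Replicate 1 clusters reached slightly farther out. They started first in 655 of the 1160 members, or 56.5%, and ended last in 664, or 57.2%, with a median width of 1585 bp against 1529 bp in replicate 2. The replicate 1 minus replicate 2 offset had a median of -17 bp at the start and 24 bp at the end. Offsets at the start and at the end of a member were nearly unrelated in size, with a Spearman's rho of 0.0665 across the 1160 members. The series cluster in turn started before both replicate clusters in 973 members and ended after both in 956, by median margins of 74 and 77 bp around replicate 1 and of 94.5 and 96 bp around replicate 2.

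**Figure D5:**
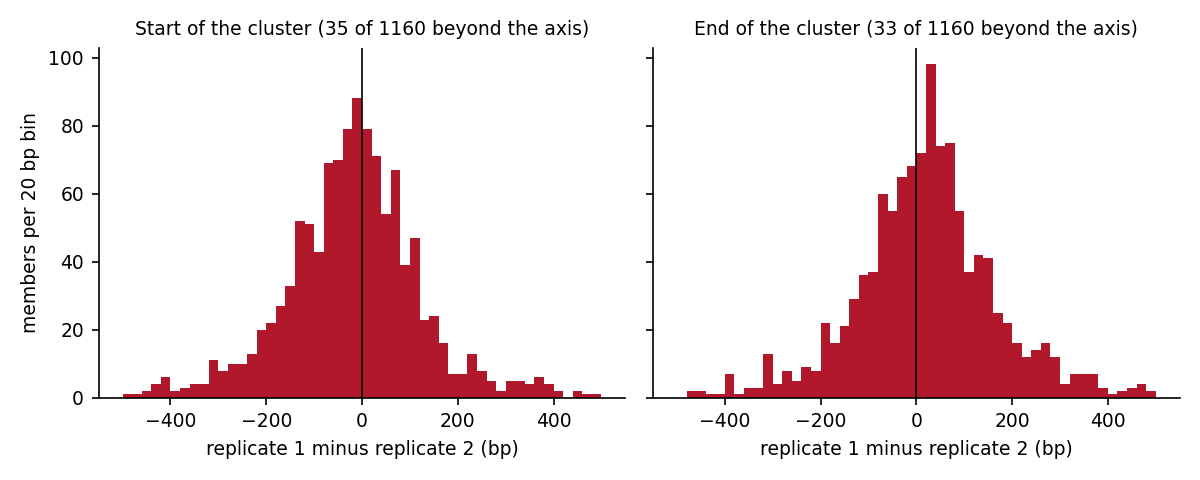
Replicate 1 minus replicate 2 position, in bp, of the start (left) and of the end (right) of the clusters that touch a member, for the 1160 members with 1 cluster of each replicate, in bins of 20 bp. The median is -17 bp at the start and 24 bp at the end, and 35 starts and 33 ends lie beyond 500 bp and are not drawn.

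Within the members the replicates covered largely the same bases. Replicate 1 covered a median of 90.3% of a member and replicate 2 a median of 87.4%. The Jaccard index, the bases of a member covered by both replicates over those covered by either, had a median of 0.886 with quartiles of 0.824 and 0.929. It was at least 0.9 in 499 of the 1174 members and under 0.5 in 17. Of the 6324 shared clusters over 2 kb and under 10 kb with 1 cluster of each replicate, it was at least 0.9 in 2054 and under 0.5 in 636. Among clusters with 1 cluster of each replicate, the median was 0.886 in members, 0.832 in shared clusters over 2 kb and under 10 kb, and 0.967 in those of at least 10 kb. The width limit bounds this index as well. Replicate clusters of at least 1301 bp that lie inside a member of at most 2000 bp must overlap each other. The index in members is thus partly fixed by the rule, and the bound is looser in wider clusters.

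The closest agreement was on 2L at 4044734 to 4046349. Replicate 1 ran there over 4044766 to 4046305 with a score of 0.432 and replicate 2 over 4044765 to 4046305 with a score of 0.374, so the starts differed by 1 bp and the ends were the same. On 3R at 15314939 to 15316813 the starts were the same and the ends differed by 6 bp, and the scores were 0.478 in replicate 1 and 0.477 in replicate 2. Next came 2L at 9372588 to 9374174 with offsets of 3 and 5 bp, 3L at 15833340 to 15835064 with 8 and 1 bp, and X at 21442955 to 21444938 with 6 and 4 bp. No member had both edges the same in both replicates.

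A small set of members had replicate clusters that overlapped little or ended far apart. In 15 members at least 1 replicate covered under 50% of the member, and in 5 the replicate clusters shared no base with each other inside it. The largest offset was on 3R at 710058 to 712037, where the replicate 1 cluster was 13.6 kb wide and started 11.6 kb before that of replicate 2, which was 1390 bp wide. Inside the member replicate 1 covered 99.2% and replicate 2 covered 70.2%. That member is also among those nearest to a broad cluster, at 61 bp. On 3R at 14029991 to 14031390 replicate 1 covered only the first bases, and the starts differed by 3.55 kb and the ends by 1.34 kb. On 3L at 20070913 to 20072576 the replicate 2 cluster started 4.37 kb earlier, while the ends differed by 2 bp, and the Jaccard index inside the member was 0.940. On X at 20697286 to 20698753 the starts differed by 2.72 kb and the ends by 1.43 kb, and on X at 18197246 to 18199242 the ends differed by 3.59 kb. In 51 of the 1160 members, or 4.40%, at least 1 edge differed by more than 500 bp. In the 6324 shared clusters over 2 kb and under 10 kb with 1 cluster of each replicate the share was 39.1%. In 67 of these 6324 the replicate clusters shared no base inside the series cluster. The width limit bounds the offsets of members more tightly, so the member counts are low partly by the rule.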

How the data were processed

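The H3K9me1 clusters of head nuclei came from 3 deposited lists, of which 2 cover a ChIP replicate each and 1 covers the series. The file headers give FlyBase release 5 as the build. The aligner was Bowtie 0.12.7 according to the submitters' processing notes. The score of each cluster is the authors' deposited value. Not given in the sources used here are the scale of that score, which caller and threshold made the clusters, and how replicates entered the series list. That list is treated as a pooled set of the authors without replicates. With depth unknown, no value has an interval for read counts, and the binomial intervals used cover the count of clusters only.

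Positions are 1-based and width counts both end bases. Gaps and distances are counted in bases between edges on the same arm. Where several replicate clusters touch a member, the outermost edges and the score of the cluster with the largest overlap were used. Members, regions to name and classes were chosen with earlier results of these data known. Named members were the 5 with the highest series score, the 5 with the smallest and the 5 with the largest summed edge offset, the 5 with the largest gap, the 3 farthest from and the 3 nearest to a cluster of at least 10 kb, the best on each arm, the 3 best in the proximal 1 Mb and the longest run. All members of chromosome 4 and the fullest windows were named after their values were seen. No test was run, since the design has 1 condition and the members were chosen by the readout. The overlap and distance functions were checked on simulated lists. Alternatives changed the width limit, the overlap rule, a score minimum, the joining of near clusters, the size called broad, the neighbour list and the replicates used. The software was Matplotlib 3.10.9, SciPy 1.17.1, pandas 2.3.3, NumPy 2.4.6 and Python 3.11.15.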

Additional observations from a re-analysis of the deposited data

Results flagged for a closer look

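Short clusters found in both replicates also lay outside the arms and chromosome 4, on sequences that the comparisons above do not use. Of the 66 series clusters there, 56 measured at most 2000 bp, and 5 of these 56 touched both replicates. On the arms and chromosome 4 it was 1174 of 10065, or 11.7%. Of the 5, 2 lay on 3LHet, at 2414399 to 2416292 and 2424429 to 2426207, 2 on 3RHet, at 1700866 to 1702652 and 2445343 to 2447037, and 1 on the unplaced sequence U at 7730519 to 7732433. Their scores ran from 0.332 to 0.486 in replicate 1 and from 0.315 to 0.539 in replicate 2.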

How the results depend on the processing

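Settings were fixed with earlier results of these data known, and a value counts as moved when it left the 95% binomial interval of the reported one, or, for the number of members, when it changed by over 1.5 times. These intervals treat clusters as independent and hold no spread between libraries, so they serve as a yardstick and not as a test. Of the values recomputed, 30 stayed within that range, 29 moved and 2 reversed, that is, the ratio fell on the other side of 1. Both rules asking for 50% overlap moved nothing. The number of members, 1174, was 108 with at least the median series score, 26 and 4038 with width limits of 1500 and 3000 bp, 605 after joining, and 2283 to 2929 with 1 replicate left out. The X to autosome ratio, 0.583, reversed to 8.62 with the common score threshold. With thresholds within X and within the other sequences the ratio was 1.14. Its interval over 86 members, 0.638 to 1.94, includes 1, so a reversal is not shown there. It was 0.821 and 0.792 with limits of 1500 and 3000 bp and 0.767 to 0.882 with 1 replicate left out. The share on chromosome 4 and in the proximal windows, 2.47%, was 4.63% above the median score, with an interval of 1.52 to 10.5% over 108 members. It was 3.85% up to 1500 bp, with an interval of 0.0973 to 19.6% over 26 members. Both intervals include 2.47%. With 1 replicate left out the share was 2.41% to 2.53%. The median gap was 1248 bp after joining, 1378.5 and 1676 bp to neighbours in the replicate 1 and 2 lists, 400 bp up to 1500 bp in width, and 521 to 539 bp with 1 replicate left out. The median distance to a broad cluster was 110.2 kb above the median score, 32.5 kb after joining, 12.6 and 1183 kb with broad set at 5 and 20 kb, 289.4 and 447.7 kb to broad clusters of the replicate 1 and 2 lists, and 90.2 to 93.6 kb with 1 replicate left out. The median edge offset and Jaccard index were 94 bp and 0.873 above the median score, 66 bp and 0.925 up to 1500 bp, and 115 bp and 0.863 up to 3000 bp. Fewer or more clusters enter under the width, score and joining settings by construction. The cause of the other shifts was not tested. Edge values cannot be had with a replicate left out. No paired analysis was possible because the study has 1 condition and no result comes from a test.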

Other observations

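Besides enriched clusters, 31 depleted regions are in the series list, all on the arms and chromosome 4. None overlapped a member, which says little, since both kinds of region come from the same list. A member lay within 1 kb of 5 of them, and their median distance to the nearest member was 17.1 kb. Distances to other enriched clusters were not computed, so these values do not set members apart.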
